A study of Mus musculus with 19 samples.

Results

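The CpG methylome of mouse hippocampal neurons was described in 3 states of activity, from 3 bisulfite libraries with 1 library per treatment. The neurons came from embryonic day 17 hippocampus of C57BL/6 mice and were used at 10 days in vitro. In the Bic/4AP library they had received bicuculline, an antagonist of GABA-A receptors, with 4-aminopyridine, a potassium channel blocker, for 3 h, which excites the network. In the TTX library they had received tetrodotoxin, which blocks voltage-gated sodium channels and silences firing, for a time not given in the sources used here, and the third library was untreated. Whether the 3 libraries came from 1 culture or from several is not given either, and with 1 library per treatment no difference has a replicate check, so values are described and nothing was tested. Levels are the authors' fraction of methylated calls at each CpG, from 0 to 1, deposited without coverage. Members are the CpGs listed in all 3 libraries, 15007037 of 18189773 listed in any, or 82.5%. The Bic/4AP library listed 16975126 CpGs, the TTX library 16734671 and the untreated library 16522674.

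Mammalian DNA is methylated mostly at cytosines followed by guanine. DNMT3A and DNMT3B write the mark, DNMT1 copies it after replication, and TET enzymes oxidize it toward removal. Most CpGs of a mammalian genome are methylated, while CpG-rich promoters, the CpG islands, are mostly free of it, and in neurons DNMT3A and TET enzymes act after cell division has ended.

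The 250 bases before 4 gene starts show the range of states in these neurons. The sequences are from RefSeq on the GRCm38.p6 assembly, which is mm10, the build of the files, and capitals mark each CpG. Fos encodes an AP-1 subunit of the rapid activity response, Dazl an RNA-binding protein of germ cells, Peg3 an imprinted zinc finger protein expressed from the paternal copy, and Gfap an intermediate filament of astrocytes.
Fos, chr12:85473640-85473889, plus strand: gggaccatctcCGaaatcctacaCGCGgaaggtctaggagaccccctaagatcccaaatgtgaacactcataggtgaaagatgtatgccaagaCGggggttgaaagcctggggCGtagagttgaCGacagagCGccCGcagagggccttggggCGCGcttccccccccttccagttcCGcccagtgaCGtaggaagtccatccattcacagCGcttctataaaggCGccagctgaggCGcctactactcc
Dazl, chr17:50293621-50293870, minus strand: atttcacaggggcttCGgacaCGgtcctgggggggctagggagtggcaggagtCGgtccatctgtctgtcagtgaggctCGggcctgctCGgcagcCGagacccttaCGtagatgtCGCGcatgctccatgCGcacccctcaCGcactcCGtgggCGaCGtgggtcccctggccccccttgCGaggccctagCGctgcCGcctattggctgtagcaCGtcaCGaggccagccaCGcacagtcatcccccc
Peg3, chr7:6730420-6730669, minus strand: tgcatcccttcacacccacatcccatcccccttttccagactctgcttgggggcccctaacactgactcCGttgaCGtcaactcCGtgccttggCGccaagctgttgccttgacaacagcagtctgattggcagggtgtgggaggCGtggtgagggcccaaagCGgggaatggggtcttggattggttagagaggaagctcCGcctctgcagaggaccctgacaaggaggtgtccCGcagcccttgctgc
Gfap, chr11:102897201-102897450, minus strand: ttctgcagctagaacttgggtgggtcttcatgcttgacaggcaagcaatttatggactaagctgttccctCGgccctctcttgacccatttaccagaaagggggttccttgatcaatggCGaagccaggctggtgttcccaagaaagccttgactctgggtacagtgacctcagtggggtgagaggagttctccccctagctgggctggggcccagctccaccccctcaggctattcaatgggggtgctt

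The Fos stretch holds 15 CpGs, of which 13 had a level in all 3 libraries. Their mean was 0 in the Bic/4AP library, 0.00855 in the TTX library and 0.0117 in the untreated library, and no CpG exceeded 0.1. The 20 CpGs of the Dazl stretch averaged 0.953 with Bic/4AP, 0.959 with TTX and 0.964 untreated. Fos and Dazl thus lie at the opposite ends of the scale in each library, although both stretches are rich in CpGs. The 8 CpGs of the Peg3 stretch averaged 0.476 with Bic/4AP, 0.543 with TTX and 0.493 untreated, near the middle of the scale. The Gfap stretch has 2 CpGs. The CpG 180 bases before the start was at 0.0769 with Bic/4AP, 0.333 with TTX and 0.31 untreated, and the CpG 131 bases before it at 0.556 with Bic/4AP, 0.893 with TTX and 0.9 untreated. Both were lowest in the Bic/4AP library, but over the 40 CpGs of the wider Gfap promoter the means were 0.637 with Bic/4AP, 0.617 with TTX and 0.641 untreated.

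Across all shared CpGs the 3 libraries had almost the same distribution. The mean level was 0.736 with Bic/4AP, 0.737 with TTX and 0.737 untreated, and the median was 0.867 in each. Levels were bimodal: 12.3% of CpGs with Bic/4AP, 12.2% with TTX and 12.2% untreated lay under 0.2, here called low, and 60.3% with Bic/4AP, 60.4% with TTX and 60.3% untreated lay over 0.8, here called high. The SD over CpGs was 0.316 with Bic/4AP, 0.317 with TTX and 0.317 untreated. The libraries differed more at the limits of the scale, where 24.5% of CpGs with Bic/4AP, 25.7% with TTX and 26.6% untreated were listed at exactly 1, and 8.03% with Bic/4AP, 8.20% with TTX and 8.25% untreated at exactly 0. The order of these shares is the reverse of the order of the number of CpGs listed, and the part of that number in them was not tested.

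**Figure D1:**
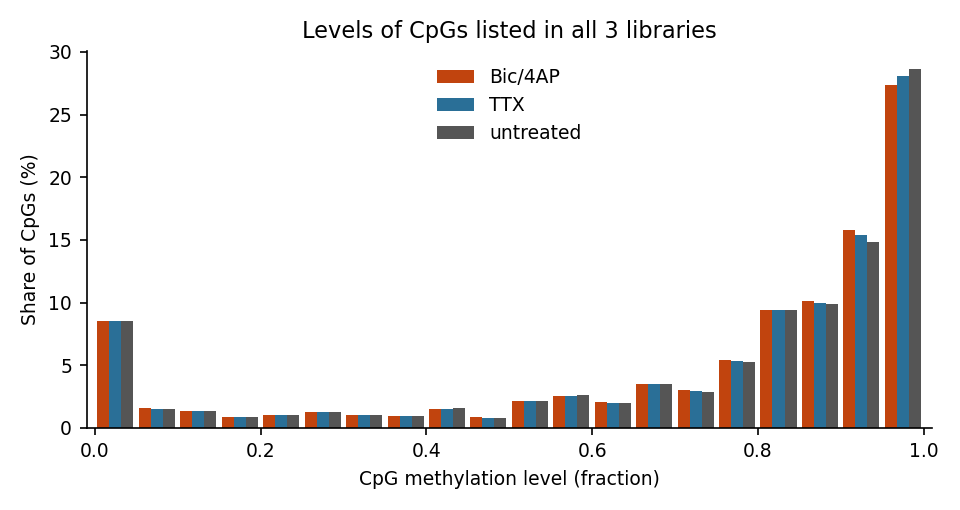
Share of the 15007037 shared CpGs, in percent, by methylation level in steps of 0.05, with 1 bar per library. All 3 libraries have a small peak at the lowest level and a large one at the highest, and in the top step the Bic/4AP bar is the lowest and the untreated bar the highest.

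Most single CpGs kept their class, but those of intermediate level mostly did not. Of all shared CpGs, 68.2% were in the same class (low, from 0.2 to 0.8, or high) in all 3 libraries, and 7213, or 0.0481%, were low in one library and high in another. Of the CpGs low in any library 71.5% were low in all 3, and of those high in any library 61.9% were high in all 3. Of those from 0.2 to 0.8 in any library only 28.7% were so in all 3. In 1 kb bins with 10 or more shared CpGs, where the level is a mean, 89.1% of 478950 bins were in the same class in all 3 libraries, and 0 were low in one and high in another.

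The mean differences were all under 0.002 in size. Bic/4AP minus untreated was -0.00153, TTX minus untreated -0.000243 and Bic/4AP minus TTX -0.00128, and the SD of the difference over CpGs was 0.137 for Bic/4AP minus untreated, 0.139 for TTX minus untreated and 0.136 for Bic/4AP minus TTX. Bic/4AP was lower than untreated on all 19 autosomes, with differences of -0.00181 to -0.00114, and lower than TTX on all 19. TTX was lower than untreated on 17 autosomes and higher on 2. Autosomes of 1 library share its conversion, depth and processing and are not replicates. With all CpGs that each library lists, in place of the shared ones, the means were 0.742 with Bic/4AP, 0.744 with TTX and 0.742 untreated, and TTX minus untreated turned to 0.00128. Over CpGs, Pearson's r was 0.906 for Bic/4AP with untreated, 0.904 for TTX with untreated and 0.908 for Bic/4AP with TTX, a description over CpGs that share library and depth.

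Chromosomes differed from each other far more than libraries did. Among autosomes chromosome 11 was lowest, at 0.695 with Bic/4AP, 0.696 with TTX and 0.697 untreated, and chromosome 16 highest, at 0.758 with Bic/4AP, 0.759 with TTX and 0.760 untreated. The X chromosome averaged 0.742 with Bic/4AP, 0.743 with TTX and 0.744 untreated. The 245 CpGs of mitochondrial DNA, which is thought to be almost free of CpG methylation, averaged 0.0104 with Bic/4AP, 0.0101 with TTX and 0.00954 untreated. Mitochondrial levels were thus near 0 in each library.

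The level fell steeply with CpG density. Bins of 1 kb were grouped by the number of CpG positions listed in any library. Bins with 1 to 5 CpGs averaged 0.834 with Bic/4AP, 0.834 with TTX and 0.835 untreated. In this class only bins whose CpGs were all shared were used, 489557 of 1157437, while bins of the other classes needed 5 shared CpGs. The mean fell with density to 0.824 with Bic/4AP, 0.825 with TTX and 0.825 untreated at 6 to 10 CpGs, 0.788 with Bic/4AP, 0.789 with TTX and 0.789 untreated at 11 to 20, and 0.636 with Bic/4AP, 0.638 with TTX and 0.638 untreated at 21 to 40. Above 40 CpGs per kb the level was 0.0781 with Bic/4AP, 0.0786 with TTX and 0.0789 untreated, and 91.5% of the 18010 such bins were low in all 3 libraries. The drop lay between 25 and 40 CpGs per kb. Untreated bins with 25 CpGs averaged 0.671, those with 30 averaged 0.539, those with 35 averaged 0.36 and those with 40 averaged 0.214. In bins of 500 bases the densest class was higher, at 0.142 with Bic/4AP, 0.143 with TTX and 0.143 untreated. The sparsest bins are also the least completely listed: 71.1% of CpGs in bins with 1 to 5 CpGs were listed in all 3 libraries, against 89.1% in bins with over 40.

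**Figure D2:**
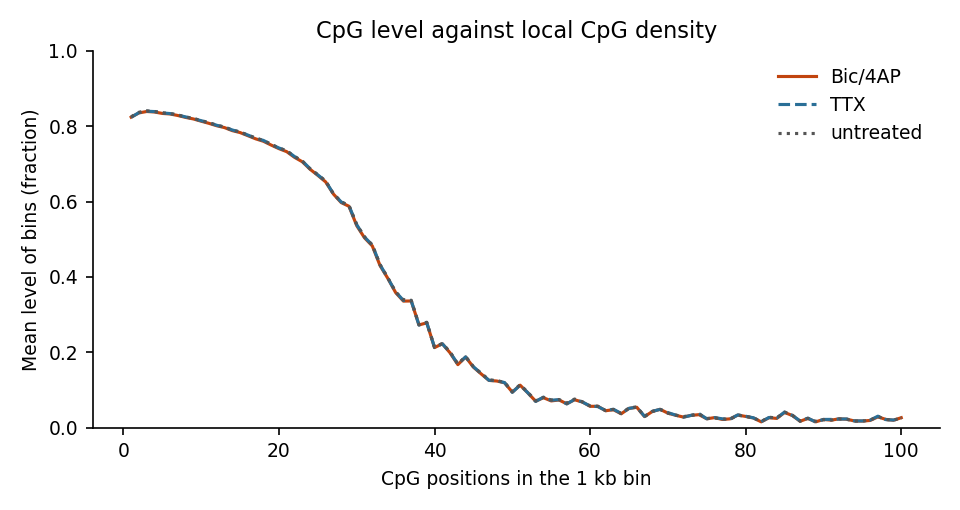
Mean CpG level of 1 kb bins (fraction, vertical axis) against the number of CpG positions in the bin (horizontal axis), with 1 line per library. The lines of the 3 libraries lie on each other, near 0.84 at 3 CpGs and near 0.058 at 60 CpGs.

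Promoters were the low part of the genome. They were taken from 1000 bases before to 500 after the RefSeq start of 27024 genes (17491 protein-coding and 9533 lncRNA genes), using the start nearest the 5′ end of the gene. Their 911377 shared CpGs averaged 0.191 with Bic/4AP, 0.192 with TTX and 0.192 untreated. CpG-dense promoters, with 40 or more CpG positions per kb, averaged 0.0448 with Bic/4AP, 0.0451 with TTX and 0.0452 untreated. Promoters of middle density averaged 0.302 with Bic/4AP, 0.304 with TTX and 0.304 untreated, and CpG-poor promoters, under 15 per kb, 0.746 with Bic/4AP, 0.748 with TTX and 0.748 untreated. CpG-poor promoters thus lay close to the genome's mean, and low promoter methylation was a property of the denser classes.

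The profile around the start had the same shape in every library. In dense promoters the first 100 bases of the gene averaged 0.0129 with Bic/4AP, 0.0129 with TTX and 0.0128 untreated. At 1 kb before the start the level was 0.253 with Bic/4AP, 0.253 with TTX and 0.254 untreated, and at 5 kb before it 0.692 with Bic/4AP, 0.696 with TTX and 0.696 untreated. The first 100 bases of middle promoters averaged 0.182 with Bic/4AP, 0.184 with TTX and 0.184 untreated, and those of poor promoters 0.713 with Bic/4AP, 0.714 with TTX and 0.716 untreated. The valley was thus deep and wide in dense promoters, narrower in middle ones and almost absent in poor ones.

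**Figure D3:**
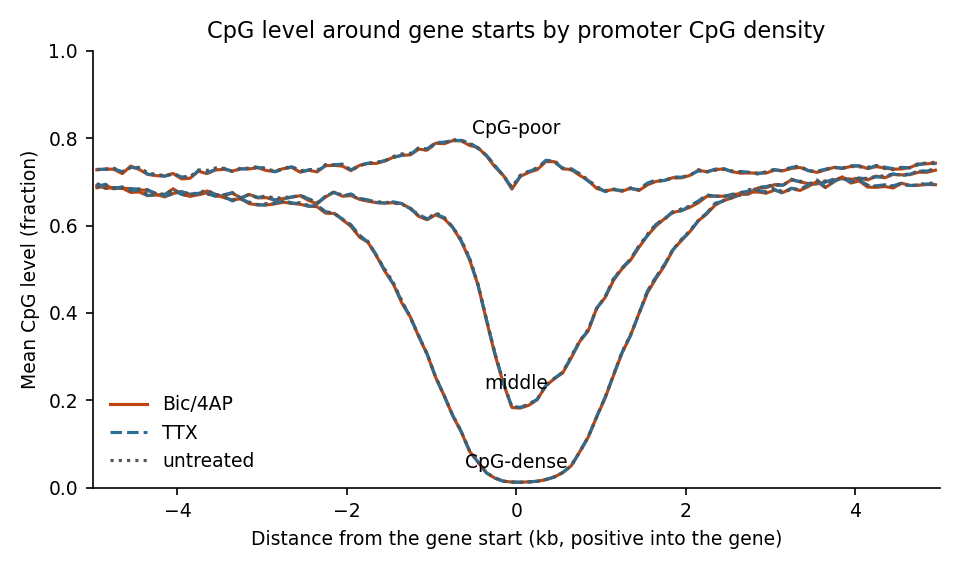
Mean CpG level (fraction) in steps of 100 bases from 5 kb before to 5 kb after the gene start, for CpG-dense, middle and CpG-poor promoters, with 1 line per library. The 3 libraries overlap in each class, and at the start the classes sit near 0.0129, 0.184 and 0.714.

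Gene bodies were highly methylated. From 2 kb after the start to the end of the gene they averaged 0.791 with Bic/4AP, 0.792 with TTX and 0.792 untreated, and sequence outside every RefSeq gene and promoter 0.793 with Bic/4AP, 0.794 with TTX and 0.794 untreated. Bodies of lncRNA genes were at 0.765 with Bic/4AP, 0.766 with TTX and 0.767 untreated. In 10055 protein-coding genes whose body, from 2 kb after the start, was 10 kb or longer, that body was cut into 20 equal parts. The first part averaged 0.746 with Bic/4AP, 0.748 with TTX and 0.747 untreated, and the eleventh part 0.806 with Bic/4AP, 0.807 with TTX and 0.807 untreated. Of 12019 gene bodies with 100 or more shared CpGs, 12016 differed by no more than 0.05 between Bic/4AP and untreated, 12018 between TTX and untreated and 12017 between Bic/4AP and TTX.

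Whole promoters kept their class more often than single CpGs did. Of 20784 promoters with 10 or more shared CpGs, 11613 were low, 4171 from 0.2 to 0.8 and 3711 high in all 3 libraries, so that 93.8% kept their class and 1289 changed it. A change always crossed 1 limit: 0 promoters were low in one library and high in another. Among CpG-dense promoters 99.5% kept their class and 8305 of 8473 were low in all 3 libraries. Only 14 dense promoters were high in all 3. With limits of 0.1 and 0.9 the promoters between the limits numbered 8698 and the high ones 813.

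Differences of 0.1 or more between libraries were rare. For Bic/4AP minus untreated, 73 of 20784 promoters were higher by 0.1 or more (0.351%) and 83 lower (0.399%). For TTX minus untreated 87 were higher (0.419%) and 81 lower (0.39%), and for Bic/4AP minus TTX 65 were higher (0.313%) and 70 lower (0.337%). The counts were near each other in both directions and in all 3 comparisons, 2 of which share the untreated library. Gene bodies passed even less often. Of 21303 bodies, 21 were higher (0.0986%) and 18 lower (0.0845%) for Bic/4AP minus untreated, 15 higher (0.0704%) and 20 lower (0.0939%) for TTX minus untreated, and 24 higher (0.113%) and 15 lower (0.0704%) for Bic/4AP minus TTX. Of 478950 bins of 1 kb, 5039 were higher (1.05%) and 5939 lower (1.24%) for Bic/4AP minus untreated. For TTX minus untreated 5863 were higher (1.22%) and 5834 lower (1.22%), and for Bic/4AP minus TTX 4796 were higher (1%) and 5880 lower (1.23%).

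How far a window differed went with how many CpGs it held and with its level. For Bic/4AP minus untreated, the SD of the promoter difference was 0.0447 over promoters with 10 to 14 shared CpGs and 0.00521 over those with 100 or more. By level, the SD for Bic/4AP minus untreated was 0.00986 over promoters with a mean under 0.1 and 0.0443 over those from 0.4 to 0.6. CpG-rich promoters are also the low ones, and the parts of number and level were not separated. Promoters with 50 to 99 CpGs had 0 calls in either direction in that comparison, and those with 100 or more had 0 in all 3 comparisons. With 20 or more CpGs required, 24 promoters passed for Bic/4AP minus untreated, 27 for TTX minus untreated and 33 for Bic/4AP minus TTX. At a difference of 0.2, 1 promoter passed for Bic/4AP minus untreated and 0 in each of the other comparisons.

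**Figure D4:**
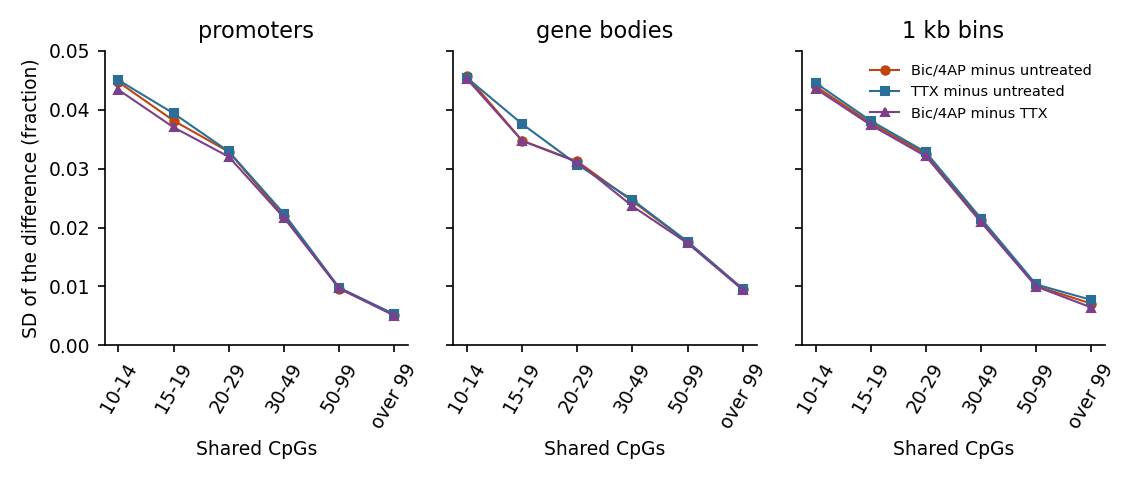
SD of the difference in level between 2 libraries (fraction, vertical axis) over promoters, gene bodies and 1 kb bins grouped by their number of shared CpGs (horizontal axis), with 1 line per comparison. For promoters, Bic/4AP minus untreated goes down from 0.0447 at 10 to 14 CpGs to 0.00521 above 99, and the 3 comparisons lie close together.

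Most of the largest promoter differences, though not all, lay in promoters of intermediate level. Taking the 5 largest in each direction and comparison among 15336 promoters with 20 or more shared CpGs gave 28 genes, of which 20 had a mean level from 0.2 to 0.8, against 16.0% of these promoters. The other 8 included Rbm3os, whose difference of -0.164 for Bic/4AP minus TTX was the largest of these. Of the 28, 6 were on the X chromosome, against 2.42% of these promoters. The genes were chosen for these differences, so the values are a description.

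For Bic/4AP minus untreated the higher promoters were those of Gm9918, Gm52288, 9130409I23Rik, AB124611 and Serpinh1, which encodes a collagen chaperone. Serpinh1 (chr7, start 99353239, minus strand, 40 CpGs) was at 0.378 with Bic/4AP, 0.250 with TTX and 0.277 untreated, so the Bic/4AP library was above both others. The lower ones were the lncRNA genes Gm35696, Gm11468, Gm25404, Gm34785 and Gm31796. Gm35696 (22 CpGs) was at 0.387 with Bic/4AP, 0.501 with TTX and 0.540 untreated. Gm25404 and Gm31796 start within 100 bases of each other on opposite strands of chromosome 3, so their promoters share CpGs and are not separate observations.

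For TTX minus untreated the higher promoters were those of Zrsr1, Irgm2, Clcn5, Fndc3c1 and Mstn, which encodes myostatin, an inhibitor of muscle growth. Zrsr1, an imprinted gene of a splicing factor (chr11, start 22972005, plus strand, 43 CpGs), was at 0.533 with TTX and 0.387 untreated, and at 0.424 with Bic/4AP. The lower ones were Olfr66, Lhx3, Fem1al, Gm34426 and Scel. Olfr66, an odorant receptor gene (31 CpGs), was at 0.680 with TTX and 0.841 untreated, and at 0.821 with Bic/4AP, so the TTX library stood below both others.

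For Bic/4AP minus TTX the higher promoters were those of Olfr66, Atrx, Gm41207, Serpinh1 and Suv39h1, and the lower ones those of Rbm3os, Gm52831, Nap1l5, Rec8 and Gabre. Atrx, an X-linked gene of a chromatin remodeller (26 CpGs), was at 0.187 with Bic/4AP, 0.0552 with TTX and 0.110 untreated. Suv39h1, an X-linked gene of a histone H3 lysine 9 methyltransferase (35 CpGs), was at 0.213 with Bic/4AP, 0.0898 with TTX and 0.158 untreated. In both genes the untreated library lay between the others. Rbm3os, an X-linked lncRNA gene (43 CpGs), was at 0.0390 with Bic/4AP, 0.203 with TTX and 0.154 untreated, so the Bic/4AP library stood below both others. Nap1l5, an imprinted gene (56 CpGs), was at 0.424 with Bic/4AP, 0.547 with TTX and 0.513 untreated.

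Dense X-linked promoters were higher than dense autosomal ones and differed more between libraries. The 160 dense X-linked promoters averaged 0.106 with Bic/4AP, 0.106 with TTX and 0.105 untreated, and the 8312 dense autosomal promoters 0.0444 with Bic/4AP, 0.0447 with TTX and 0.0448 untreated. For Bic/4AP minus untreated, the SD of the difference was 0.0369 over dense X-linked promoters and 0.00824 over dense autosomal ones. The dense X-linked promoters hold fewer shared CpGs, with a median of 43.5 against 78, and the part of this in their spread was not tested. In the middle class the level went the other way, with X-linked promoters at 0.247 with Bic/4AP, 0.248 with TTX and 0.254 untreated and autosomal ones at 0.362 with Bic/4AP, 0.363 with TTX and 0.364 untreated. Over all densities X-linked promoters were also lower, at 0.279 with Bic/4AP, 0.278 with TTX and 0.281 untreated, against 0.335 with Bic/4AP, 0.336 with TTX and 0.336 untreated on autosomes.

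Promoters of most activity genes were low in every library, also where RNA levels differed. The list of rapid activity genes, transcription factors and feedback proteins induced within minutes to hours of firing, had 16 members with a start and 10 or more CpGs, of which 15 were low in all 3 libraries, against 11613 of 20784 promoters overall (55.9%). Of the 16 members 15 had a CpG-dense promoter, and of all dense promoters 98.0% were low in all 3 libraries. The count is thus near the share of dense promoters. Both shares also stand beside the counts of the lists below. The list's median was 0.0104 with Bic/4AP, 0.0129 with TTX and 0.0144 untreated, against 0.120 with Bic/4AP, 0.121 with TTX and 0.121 untreated over all promoters. No member differed by 0.1 or more between 2 libraries, against 0.313% to 0.419% of all promoters per direction and comparison. Among the 8312 dense autosomal promoters 0 to 2 did so per comparison, so the list does not stand apart in this. Over the whole Fos promoter window (68 CpGs) the level was 0.0109 with Bic/4AP, 0.00708 with TTX and 0.00486 untreated, while mean RNA levels in libraries of the same treatments, from ICR mice, were 185 RPKM with Bic/4AP, 15.2 with TTX and 9.76 untreated (reads per kb of gene, scaled to library size, as which the deposited values, given without a unit, were read). Npas4, a neuronal activity factor (59 CpGs), was at 0.101 with Bic/4AP, 0.0929 with TTX and 0.0875 untreated, with RNA of 124 RPKM with Bic/4AP, 6.96 with TTX and 8.50 untreated. The lowest member by the mean of the libraries was Atf3, a stress and activity factor (94 CpGs), at 0.00446 with Bic/4AP, 0.00708 with TTX and 0.00444 untreated. The highest was Maff, a small MAF factor with only 12 shared CpGs there, at 0.258 with Bic/4AP, 0.352 with TTX and 0.279 untreated. Another Maff start, with 92 CpGs, was at 0.0382 with Bic/4AP, 0.0328 with TTX and 0.0342 untreated. With the start of most CpGs for each gene, all 16 members were low.

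The bodies of rapid activity genes were less methylated than most, with medians of 0.483 with Bic/4AP, 0.482 with TTX and 0.472 untreated, against 0.829 with Bic/4AP, 0.830 with TTX and 0.830 untreated over all bodies. Many are short genes, so a body that begins 2 kb after the start rests on few CpGs: 28 for Fos, 60 for Npas4. Late activity genes, which follow the first wave, were low in all 14 members with enough CpGs, with medians of 0.0162 with Bic/4AP, 0.0159 with TTX and 0.0205 untreated. Of these 14 promoters 10 were CpG-dense. Rheb, a GTPase that activates mTORC1 (133 CpGs), was lowest at 0.00822 with Bic/4AP, 0.00648 with TTX and 0.00959 untreated, and Rasgrp1, a Ras activator, highest at 0.113 with Bic/4AP, 0.118 with TTX and 0.120 untreated. Bdnf, which encodes a secreted neurotrophin, has several starts: 5 were at no more than 0.0410 in each library, while a start with 8 shared CpGs was at 0.830 with Bic/4AP, 0.898 with TTX and 0.770 untreated. The most downstream start, with 14 shared CpGs, was at 0.458 with Bic/4AP, 0.605 with TTX and 0.472 untreated, so the TTX library stood above both others by over 0.1. Among promoters with 10 to 14 shared CpGs, 1.79% were higher by 0.1 or more for TTX minus untreated. For Bic/4AP minus TTX 1.22% of them were lower. The Bdnf start was picked from several after its values were seen, so its values are a description.

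Synapse genes were mostly low as well. Of 21 promoters of the excitatory synapse list, 16 were low and 2 high in all 3 libraries, and all 10 of the inhibitory synapse list were low. CpG-dense promoters numbered 10 in the excitatory list and 8 in the inhibitory list. Epha4, an ephrin receptor, was lowest in the first list at 0.00494 with Bic/4AP, 0.00873 with TTX and 0.00305 untreated. Gad1, which makes GABA, was lowest in the second at 0.0102 with Bic/4AP, 0.00109 with TTX and 0.00705 untreated, and Slc12a5, the neuronal chloride exporter, highest at 0.171 with Bic/4AP, 0.189 with TTX and 0.182 untreated. The highest excitatory promoter was the far upstream start of Nrxn3, a presynaptic adhesion gene, at 0.924 with Bic/4AP, 0.918 with TTX and 0.937 untreated. A second Nrxn3 start 1018 kb into the gene was at 0.0212 with Bic/4AP, 0.0199 with TTX and 0.0188 untreated. Such pairs were common: of 1478 genes with starts 1.5 kb or more apart, 251 (16.98%) had a low and a high start in all 3 libraries, and in 58 of these the high start lay upstream. Ank2, which encodes a membrane scaffold, had a low start at 0.0992 with Bic/4AP, 0.0978 with TTX and 0.105 untreated and a high one at 0.940 with Bic/4AP, 0.938 with TTX and 0.9499 untreated.

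Genes of the methylation machinery had low promoters in 11 of 13 members, of which 8 had a CpG-dense promoter. Dnmt3a, a de novo methyltransferase (109 CpGs), was lowest at 0.00739 with Bic/4AP, 0.0123 with TTX and 0.00614 untreated. Dnmt3l, a cofactor of germ cells, was at 0.895 with Bic/4AP, 0.881 with TTX and 0.878 untreated, and the most upstream RefSeq start of Dnmt1 at 0.905 with Bic/4AP, 0.897 with TTX and 0.944 untreated. With the start of most CpGs for each gene, 12 of 13 members were low.

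Marker genes of other cell types differed in level, and among their promoters with 10 or more shared CpGs none differed by 0.1 or more between 2 libraries. Over all promoters 0.313% to 0.419% did so per direction and comparison, so lists this small would hold few or none at that share. With fewer than 10 shared CpGs, the promoters of Ptprc and Kcnj13, with 8 each, differed by 0.1 or more. Ptprc, a leukocyte phosphatase of the microglia list, was at 0.728 with Bic/4AP, 0.756 with TTX and 0.624 untreated, and Kcnj13, a potassium channel of the choroid plexus list, at 0.372 with Bic/4AP, 0.263 with TTX and 0.229 untreated. General neuron markers were low in 8 of 10 promoters, with the lowest in Syt1, a synaptic vesicle calcium sensor, at 0.0120 with Bic/4AP, 0.00576 with TTX and 0.00244 untreated, and the highest in Rbfox3, a neuronal splicing factor, at 0.671 with Bic/4AP, 0.690 with TTX and 0.668 untreated. Astrocyte markers were low in 3 of 9, from Fgfr3, a growth factor receptor, at 0.0369 with Bic/4AP, 0.0346 with TTX and 0.0388 untreated to S100b, a calcium-binding protein, at 0.637 with Bic/4AP, 0.636 with TTX and 0.707 untreated. Microglia markers were low in 0 of 5, with medians of 0.670 with Bic/4AP, 0.718 with TTX and 0.692 untreated, from P2ry12, a purine receptor, at 0.615 with Bic/4AP, 0.639 with TTX and 0.591 untreated to Itgam, an integrin, at 0.872 with Bic/4AP, 0.848 with TTX and 0.906 untreated. These lists also differ in CpG density, with a median of 41.7 CpG positions per kb for neuron markers and 12 for microglia markers. In RNA libraries of untreated neurons, from ICR mice, the lists' median levels were 64.7 RPKM for neurons, 6.32 for astrocytes and 0.396 for microglia. For the lists described below they were 25.9 for choroid plexus, 19.4 for interneuron, 1.86 for vascular and 1.28 for oligodendrocyte lineage genes. Choroid plexus genes were thus above astrocyte markers in RNA, with a higher untreated promoter median of 0.360 against 0.194. Bisulfite libraries carry no RNA of their own, so the labelled cell type was not checked in them.

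The remaining cell type lists lay between. Interneuron genes were low in 7 of 11, from Dlx1, a homeobox factor, at 0.00231 with Bic/4AP, 0.00868 with TTX and 0.00358 untreated to the upstream start of Pvalb, a calcium buffer (22 CpGs), at 0.866 with Bic/4AP, 0.867 with TTX and 0.880 untreated. A second Pvalb start with 49 CpGs was at 0.0685 with Bic/4AP, 0.0712 with TTX and 0.0613 untreated. Oligodendrocyte lineage markers were low in 3 of 8, with Olig2, a lineage factor, at 0.0132 with Bic/4AP, 0.0172 with TTX and 0.00957 untreated and Mog, a myelin protein, at 0.861 with Bic/4AP, 0.911 with TTX and 0.860 untreated. Vascular markers were low in 2 of 6, with Flt1, a VEGF receptor, at 0.0116 with Bic/4AP, 0.0168 with TTX and 0.0208 untreated and Tek, an angiopoietin receptor, at 0.726 with Bic/4AP, 0.717 with TTX and 0.691 untreated. Choroid plexus genes were low in 2 of 6, with Otx2, a homeobox factor, at 0.114 with Bic/4AP, 0.0666 with TTX and 0.0700 untreated and Kcne2, a potassium channel subunit, at 0.768 with Bic/4AP, 0.775 with TTX and 0.803 untreated. Housekeeping genes were low in 11 of 12, the exception being X-linked Hprt, a purine salvage enzyme, at 0.158 with Bic/4AP, 0.184 with TTX and 0.227 untreated, and the lowest was Tuba1b, an alpha tubulin, at 0.00336 with Bic/4AP, 0.00351 with TTX and 0.00589 untreated.

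**Figure D5:**
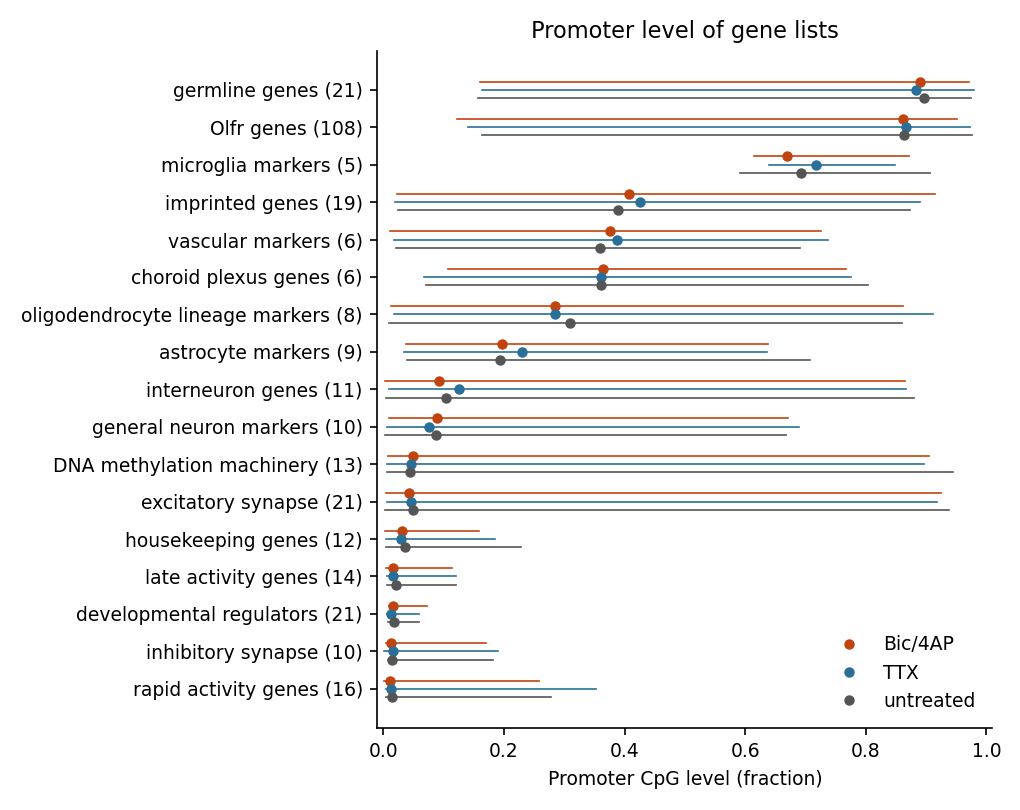
Promoter CpG level (fraction) of gene lists, with the number of promoters with 10 or more shared CpGs in brackets. Points are medians over the members and lines run from the lowest to the highest member, 1 colour per library. Germline and Olfr genes sit near 0.86 to 0.90, activity and developmental genes near 0.01 to 0.02, and the 3 libraries lie close together in each list.

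Most germline genes had high promoter levels. Of 21 members, 16 were high and 1 low in all 3 libraries, and of the 8 dense ones 5 were high. The medians were 0.890 with Bic/4AP, 0.882 with TTX and 0.897 untreated. Rpl10l, a ribosomal protein gene of the testis (49 CpGs), was highest at 0.971 with Bic/4AP, 0.980 with TTX and 0.974 untreated. The Dazl promoter window (77 CpGs) was at 0.922 with Bic/4AP, 0.933 with TTX and 0.932 untreated. Stag3, a meiotic cohesin subunit (86 CpGs), was the low exception at 0.160 with Bic/4AP, 0.163 with TTX and 0.157 untreated. The other dense promoters not high in all 3 libraries were those of Smc1b, another meiotic cohesin subunit, at 0.330 with Bic/4AP, 0.317 with TTX and 0.308 untreated, and Ddx4, a germ cell RNA helicase, at 0.754 with Bic/4AP, 0.807 with TTX and 0.748 untreated. Odorant receptor genes, which olfactory neurons express, were CpG-poor: 108 of 944 had 10 or more shared CpGs, and 76 of these were high in all 3 libraries.

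Imprinted genes, which are methylated on the copy from 1 parent at their control regions, were intermediate by their median. Of 19 promoters 4 were low and 1 high in all 3 libraries. Medians of 19 promoters were 0.406 with Bic/4AP, 0.425 with TTX and 0.390 untreated. The Peg3 promoter window (59 CpGs) was at 0.464 with Bic/4AP, 0.513 with TTX and 0.491 untreated, and Nnat, a neuronal proteolipid gene (81 CpGs), at 0.406 with Bic/4AP, 0.402 with TTX and 0.479 untreated. Grb10, a growth factor receptor adaptor, was lowest at 0.0230 with Bic/4AP, 0.0200 with TTX and 0.0248 untreated, and the most upstream start of Igf2, a fetal growth factor, highest at 0.915 with Bic/4AP, 0.890 with TTX and 0.874 untreated. Differences of 0.1 or more appeared in this list and in that of odorant receptors. Of 19 imprinted promoters 1 was higher and 1 lower for TTX minus untreated, against 0.419% and 0.39% of all promoters, and 2 were lower for Bic/4AP minus TTX, against 0.337%. Among all promoters with a mean level from 0.4 to 0.6 these shares were 2.07%, 1.58% and 1.41% in the same order. Of 108 odorant receptor promoters 3 were higher and 1 lower for TTX minus untreated, and 1 was higher and 1 lower for Bic/4AP minus TTX. Over all promoters the shares were 0.419%, 0.39%, 0.313% and 0.337% in the same order. Among CpG-poor autosomal promoters, with both directions together, 2.14% passed for TTX minus untreated and 1.64% for Bic/4AP minus TTX. The odorant receptor counts are near these shares of CpG-poor promoters. Counts as small as those of both lists are given as a description.

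Developmental regulators were low far beyond their promoters. All 21 members were low in all 3 libraries, with medians of 0.0155 with Bic/4AP, 0.0127 with TTX and 0.0170 untreated, and their bodies had medians of 0.167 with Bic/4AP, 0.156 with TTX and 0.144 untreated, against 0.829 with Bic/4AP, 0.830 with TTX and 0.830 untreated over all bodies. Irx3, a homeobox factor (102 CpGs), was lowest by promoter at 0.00886 with Bic/4AP, 0.0103 with TTX and 0.00701 untreated, and Pax5, a B cell factor, highest at 0.0717 with Bic/4AP, 0.0566 with TTX and 0.0585 untreated. The list's median RNA level in untreated libraries was 0.0766 RPKM, so promoters of this list and of expressed activity genes were alike in level at very different RNA levels.

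Long domains of low methylation were defined over the 3 libraries together, so that all 3 share them follows from the rule. Of 1 kb bins with 10 or more shared CpGs, 27227 were under 0.1 in any library and 23494 in all 3. Joining adjacent 1 kb bins under 0.1 in all 3 libraries gave 306 domains of 5 kb or more, and 552 with a limit of 0.2. No domain exceeded 0.0661 in any library, and the largest difference between 2 libraries was 0.0208. The limit of 0.1 held both values under 0.1 in advance. The longest, 22 kb at chr7:79498001-79520000 over Mir9-3hg, the host gene of a neural microRNA, was at 0.0133 with Bic/4AP, 0.0173 with TTX and 0.0155 untreated. Others held homeobox genes of body plan and brain regions. Hmx3 and Hmx2 lay in 18 kb of chromosome 7, Uncx in 17 kb of chromosome 5, Dlx1 in 16 kb and Hoxd11 with Hoxd10 in 16 kb of chromosome 2. Pax2 on chromosome 19 lay in 15 kb, and so did Gm36079 with Gm21188 on chromosome 13, where the domain holds 165 shared CpGs. The second longest, 21 kb of chromosome 13, held the lncRNA gene C130071C03Rik.

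Members of 14 families of developmental factors, chosen after the domains had been seen, made up much of the set. Of 194 genes of these families 81 (41.8%) overlapped a domain, against 273 of 21896 protein-coding genes (1.25%), with 27 of 39 Hox genes. Starts of 13 of 21 developmental regulators lay in a domain, against 241 of 27024 starts overall. In samples from ICR mice, H3K27ac, a mark of active promoters and enhancers, had peaks in 81 and 134 domains in the 2 Bic/4AP samples and in 56 and 125 in the 2 untreated samples, and these lists differ widely in size, with 7721 and 55035 peaks with Bic/4AP and 4846 and 49701 untreated. H3K4me1, a mark of enhancers, had peaks in 4 and 5 domains in the 2 untreated samples. No share over other regions stands beside these peak counts. Whether domains hold more or fewer peaks than other sequence was not tested.

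Peaks of the histone marks had their own levels, close to each other in the 3 libraries. Inside the H3K27ac peaks of the first Bic/4AP sample CpGs averaged 0.0785 with Bic/4AP, 0.0790 with TTX and 0.0790 untreated, and inside those of the second, larger list 0.342 with Bic/4AP, 0.343 with TTX and 0.344 untreated. Peaks of the first untreated sample were at 0.101 in each library and those of the second at 0.348 with Bic/4AP, 0.349 with TTX and 0.349 untreated. Inside the H3K4me1 peaks of the first sample CpGs averaged 0.634 with Bic/4AP, 0.636 with TTX and 0.636 untreated, and outside promoters 0.636 with Bic/4AP, 0.638 with TTX and 0.638 untreated. H3K4me1 peaks thus lay below the gene body mean and far above the promoter mean.

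Across genes, promoter level was lower where RNA level was higher, while gene body level differed little. For 17795 genes matched to a name in the expression files, split into 5 groups by mean RPKM under the same treatment, promoters of the lowest group averaged 0.650 with Bic/4AP, 0.708 with TTX and 0.693 untreated. Those of the highest group averaged 0.0697 with Bic/4AP, 0.0679 with TTX and 0.0691 untreated. Each treatment's groups were cut on its own RNA, so they hold different genes. The lowest group held 1705 promoters with Bic/4AP, 1406 with TTX and 1447 untreated. Means of a group were therefore not compared between libraries. The groups in between, with untreated RNA and methylation, were at 0.460, 0.165 and 0.0840 from low to high RNA. Bodies averaged 0.777 with Bic/4AP, 0.790 with TTX and 0.786 untreated in the lowest group and 0.8098 with Bic/4AP, 0.815 with TTX and 0.816 untreated in the highest. Not every gene had a usable promoter or body. Of 3559 genes in each untreated group, 1447 promoters were used in the lowest group and 3501 in the highest. Bodies numbered 1741 in the lowest and 3369 in the highest. The groups also differ in CpG density: 7.53% of promoters were dense in the lowest untreated group and 75.9% in the highest. Among genes at 1 RPKM or more the difference between the highest and the lowest group's promoters was -0.121 with Bic/4AP, -0.122 with TTX and -0.142 untreated. Genes are not replicates, RNA and methylation came from different strains, and the comparison is a description across genes.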

How the data were processed

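The 3 bisulfite libraries were analysed here, 1 per treatment. Per the labels' protocols DNA was treated with the EZ DNA Methylation-Gold kit and adaptors were attached to the already converted strands (PBAT). The authors deposited a fraction from 0 to 1 for each CpG, with 1 entry for both strands and no coverage, so depth is unknown and neither an interval nor a coverage minimum could be given. Low depth widens single levels and raises the shares at exactly 0 and 1. Per the submitters' processing notes the build is mm10, and Bowtie2 2.2.4, SAMtools 0.1.19, MACS 1.4.1 and TopHat are listed, with no roles stated. The sources used here give neither the methylation caller nor a coverage filter. The deposited expression values have no unit in their files and were read as RPKM, from 3 libraries per treatment of ICR mice. The score of each peak in the authors' deposited MACS lists was not used, only peak positions.

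CpGs were matched by position, and 391146 of 408244 CG pairs in RefSeq promoter sequences of GRCm38.p6 (95.8%) were listed by at least 1 library. Windows are means of shared CpGs (Python, numpy and pandas), and the window code was tested on simulated data. A call is an absolute difference of 0.1 or more in windows with 10 or more shared CpGs, without a test. The RefSeq tables used hold gene starts and no exons. Named genes are the 5 largest promoter differences per direction and comparison with 20 or more CpGs, the highest and lowest member of each list, the 10 longest domains (some not reported here), and 8 genes always named, of which those with a RefSeq start in the table are given; others were added as examples after their values were seen. Gene lists, members and named genes were chosen with earlier results of these data known, and the developmental families after the domains were seen. The alternatives tried are other CpG sets, limits, windows, minimum CpG numbers, a centred difference, RNA libraries left out, and, added after seeing the data, the start with the most CpGs.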

Additional observations from a re-analysis of the deposited data

How the results depend on the processing

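No paired analysis was possible because there is 1 bisulfite library per treatment and no result comes from a test. With all CpGs each library lists, mean levels were 0.742 with Bic/4AP, 0.744 with TTX and 0.742 untreated, and differences -0.000418 for Bic/4AP minus untreated, 0.00128 for TTX minus untreated and -0.00169 for Bic/4AP minus TTX, the second of which turned in direction; the cause was not tested. On autosomes alone differences were -0.00153 for Bic/4AP minus untreated, -0.000225 for TTX minus untreated and -0.0013 for Bic/4AP minus TTX. With each 1 kb bin weighted equally, means were 0.811 with Bic/4AP, 0.812 with TTX and 0.813 untreated and differences -0.00147 for Bic/4AP minus untreated, -0.000433 for TTX minus untreated and -0.00103 for Bic/4AP minus TTX.

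With limits of 0.1 and 0.9, 54.4% of CpGs kept their class, 10.1% with Bic/4AP, 10.03% with TTX and 10.04% untreated were low and 41.2% with Bic/4AP, 41.4% with TTX and 41.5% untreated high. In 1 kb bins 89.1% kept their class, 7.52% with Bic/4AP, 7.48% with TTX and 7.47% untreated were low and 60.3% with Bic/4AP, 60.6% with TTX and 60.6% untreated high. Promoters from 250 bases before to 50 after the start averaged 0.128 with Bic/4AP, 0.128 with TTX and 0.129 untreated, and gene bodies taken from the start 0.717 with Bic/4AP, 0.718 with TTX and 0.718 untreated. In bins of 500 bases the density classes from sparse to dense averaged 0.832 with Bic/4AP, 0.833 with TTX and 0.834 untreated, then 0.822 with Bic/4AP, 0.823 with TTX and 0.823 untreated, then 0.79 with Bic/4AP, 0.792 with TTX and 0.792 untreated, then 0.699 with Bic/4AP, 0.701 with TTX and 0.701 untreated, and last 0.142 with Bic/4AP, 0.143 with TTX and 0.143 untreated.

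The share of promoters that kept their class was 91.9% with 5 or more shared CpGs, 96.7% with 20 or more and 90.6% with limits of 0.1 and 0.9. With 20 or more CpGs 2185 promoters were intermediate and 1220 high in all 3 libraries, and with the stricter limits 8698 and 813. The start with the most CpGs, an alternative chosen after seeing the data, kept the 3 counts of all promoters that were low, intermediate or high in all 3 libraries within 1.5 times. In the gene lists it left 1 excitatory synapse promoter high in place of 2, 0 interneuron and 0 imprinted promoters in place of 1 each and 1 of the methylation machinery in place of 2. Low promoters became 16 of 16 for rapid activity genes (from 15 of 16), 19 of 22 for excitatory synapse (16 of 21) and 8 of 11 for interneuron genes (7 of 11). They became 6 of 20 for imprinted genes (4 of 19), 12 of 13 for methylation machinery (11 of 13) and 2 of 9 for astrocyte markers (3 of 9). The other lists kept their low counts. At a difference of 0.2, promoters with a call numbered 1 for Bic/4AP minus untreated, 0 for TTX minus untreated and 0 for Bic/4AP minus TTX, gene bodies 1 for Bic/4AP minus untreated, 1 for TTX minus untreated and 0 for Bic/4AP minus TTX and 1 kb bins 106 for Bic/4AP minus untreated, 130 for TTX minus untreated and 109 for Bic/4AP minus TTX. With 20 or more CpGs promoters with a call numbered 24 for Bic/4AP minus untreated, 27 for TTX minus untreated and 33 for Bic/4AP minus TTX, gene bodies 6 for Bic/4AP minus untreated, 2 for TTX minus untreated and 6 for Bic/4AP minus TTX and 1 kb bins 429 for Bic/4AP minus untreated, 442 for TTX minus untreated and 377 for Bic/4AP minus TTX. Subtracting the median difference kept all 9 totals within 1.5 times. With a limit of 0.2 there were 552 long domains.

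The difference in promoter level between the highest and the lowest of the 5 RNA groups, leaving out each RNA library in turn, was -0.585 to -0.575 for Bic/4AP, -0.64 to -0.635 for TTX, -0.626 to -0.618 for untreated, and in gene bodies 0.0275 to 0.0294 for Bic/4AP, 0.0231 to 0.024 for TTX, 0.0274 to 0.0313 for untreated. Among genes at 1 RPKM or more it was -0.121 with Bic/4AP, -0.122 with TTX and -0.142 untreated in promoters and 0.0207 with Bic/4AP, 0.0286 with TTX and 0.0302 untreated in gene bodies. The RNA groups hold different genes for each treatment, so these values were not compared between libraries.

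Depth is unknown and each treatment has 1 library, so a difference cannot be told apart from a difference between libraries, cultures or conversion. Methylated and hydroxymethylated cytosines are read alike after bisulfite, and levels are means over all cells of a culture.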

Other observations

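Few long gene bodies were under 0.5. Among 8534 protein-coding gene bodies of 10 kb or more with 100 or more CpGs, 5717 were over 0.8 and 141 under 0.5 in all 3 libraries. The lowest was Hoxa3, a homeobox gene, at 0.0321 with Bic/4AP, 0.0327 with TTX and 0.0356 untreated. It was followed by Nr2f2, a nuclear receptor gene, at 0.0449 with Bic/4AP, 0.0368 with TTX and 0.0507 untreated, although its RNA averaged 35.6 RPKM with Bic/4AP, 15.2 with TTX and 17.5 untreated. The highest body was that of Zfp27, a zinc finger gene by name, at 0.960 with Bic/4AP, 0.963 with TTX and 0.960 untreated, while its promoter was at 0.154 with Bic/4AP, 0.181 with TTX and 0.190 untreated.

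Over windows of 1 Mb the landscape was broad and the libraries close. Across 2535 windows the median was 0.764 with Bic/4AP, 0.765 with TTX and 0.765 untreated, with lowest windows at 0.484 with Bic/4AP, 0.487 with TTX and 0.487 untreated and highest at 0.887 with Bic/4AP, 0.888 with TTX and 0.885 untreated. The window differences for Bic/4AP minus untreated ran from -0.0157 to 0.0135. With protein-coding genes in 5 equal groups by body length, bodies of the shortest group averaged 0.748 in each library and those of the fourth group 0.823 with Bic/4AP, 0.824 with TTX and 0.824 untreated. Medians did not show this difference, at 0.841 with Bic/4AP, 0.841 with TTX and 0.840 untreated in the shortest group and 0.839 with Bic/4AP, 0.840 with TTX and 0.840 untreated in the fourth.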
